A study of Homo sapiens with 8 samples.

Results

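The question addressed here was whether loss of the mitochondrial pyrophosphatase PPA2 changed the transcriptome of DLD1 cells differently when oxygen was low. DLD1 is an established human colorectal adenocarcinoma line. All 8 libraries of the series, 8 of 8, entered the comparison, with 2 libraries in each of 4 groups. The groups were control-hairpin cells (labelled shNT, genotype WT) under normoxia (HO), PPA2-knockdown cells (shPP, genotype PPA2 knockdown) under normoxia, control-hairpin cells under hypoxia (LO), and PPA2-knockdown cells under hypoxia. Each culture spent 12 h at its oxygen level before collection, and poly(A) RNA was sequenced. The labels name 1 knockdown hairpin and no rescue, so effects of the hairpin other than loss of PPA2 cannot be told apart from it. They do not say whether replicates were separate cultures, so each p-value below reflects only how far these particular libraries varied, and that variation could be technical.

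PPA2 splits inorganic pyrophosphate, a by-product of nucleotide polymerisation and of amino acid and fatty acid activation, inside mitochondria, whereas PPA1 does so in the cytosol. Mitochondria are the main oxygen consumers of the cell. When oxygen falls, the prolyl hydroxylases stop marking the HIF alpha subunits for destruction, and HIF then raises genes for glycolysis, glucose and lactate transport, angiogenesis and mitophagy.

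The normoxia and hypoxia libraries were deposited in separate tables, the first in RPKM, which scales reads to the length of the gene and the size of the library, and the second in FPKM, which does so for fragments. A difference in level between the tables therefore cannot be told apart from a difference in their processing. What was compared is the response to knockdown, which was computed within each table as the log2(value + 1) of knockdown minus control. The interaction is the response under hypoxia minus the response under normoxia. Each oxygen level has its own table, so an interaction cannot be told apart from a difference in how the tables were processed. An interaction above 0 means that knockdown moved the gene further up, or less far down, under hypoxia. Of 57069 gene symbols used once in each table, 13585 had a mean of at least 1 over the 8 libraries and were tested with limma. A gene is called at a Benjamini-Hochberg adjusted p under 0.05 over all 13585 genes.

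Replicates correlated at 0.993 to 0.9963 on the log2 scale. The normoxia values moved in whole-read steps that put those libraries at 28023447 to 35703244 reads, and no such steps were found in the hypoxia table, so its depth is unknown. Of 10 epithelial marker genes 9 passed the filter. Of the fibroblast markers only ACTA2 passed, of the endothelial markers only ESAM, and of the immune markers none.

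PPA2, on chromosome 4 (GRCh38, 105369077 to 105474067, minus strand), was lowered by the hairpin at both oxygen levels. Its control values were 79.8 and 84.1 RPKM under normoxia, and the knockdown values were 5.88 and 5.74 RPKM. Under hypoxia the controls had 65.5 and 50.8 FPKM and the knockdown libraries 9.848 and 9 FPKM. Control and knockdown libraries did not overlap in either table. The log2 response was -3.61 under normoxia and -2.49 under hypoxia, an interaction of 1.11 (standard error 0.15, limma adjusted p = 0.00034), so the measured knockdown was less deep under hypoxia. Any interaction below is thus a comparison of knockdowns of unequal depth, and the part of this in the other results was not tested. PPA1, the cytosolic enzyme on chromosome 10, fell further under hypoxia. Its values were 315 and 330 RPKM in controls and 255 and 272 RPKM in knockdown cells under normoxia, against 241 and 226 FPKM and then 127 and 130 FPKM under hypoxia. The PPA1 interaction was -0.57 (standard error 0.09, limma adjusted p = 0.000651).

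The response to knockdown differed between the normoxia and hypoxia tables for a large share of the transcriptome, and the larger response was under hypoxia. The interaction was called for 5760 genes (42.4% of those tested), of which 1815 (13.4%) lay above 0 and 3945 (29%) below. Knockdown changed 4361 genes under normoxia (32.1%) and 8356 genes under hypoxia (61.5%). The mean absolute log2 response was 0.24 under normoxia and 0.43 under hypoxia. Both responses, which share no library, correlated across the tested genes with a Pearson r of 0.42 and a Spearman rho of 0.43, a description over genes that are not independent. Of the 3071 genes called in both arms, 2568 (83.62%) moved the same way. In bulk RNA, fewer cells of a kind and less RNA per cell cannot be told apart.

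The split between interactions above and below 0 depends on how libraries are scaled. The median interaction over all tested genes was -0.13. Centring each library on its median moved it to 0.02 and gave 2951 calls above 0 and 2612 below, 53% above against 31.5% as deposited. Leaving out the genes of the mitochondrial genome and rescaling the libraries gave 2504 above and 2727 below, 47.9% above. For this reason counts of list members are also given for centred libraries. Counts of list members as deposited are to be set beside the 13.4% above 0 and 29% below of all tested genes. Counts that rose or fell in 1 arm are to be set beside 21.1% and 11% under normoxia. Under hypoxia these shares were 26.6% and 34.9%. Those for centred libraries are to be set beside 2951 above 0 and 2612 below of all 13585 tested genes. Genes that a table lists near 0 need care too. For 106 tested genes the control mean was under 1 in the normoxia table and at least 10 in the hypoxia table. The reverse held for 99 genes. Of the 106, 7 had an interaction above 0 and 47 below, and of the 99, 15 lay above and 4 below.

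**Figure D1:**
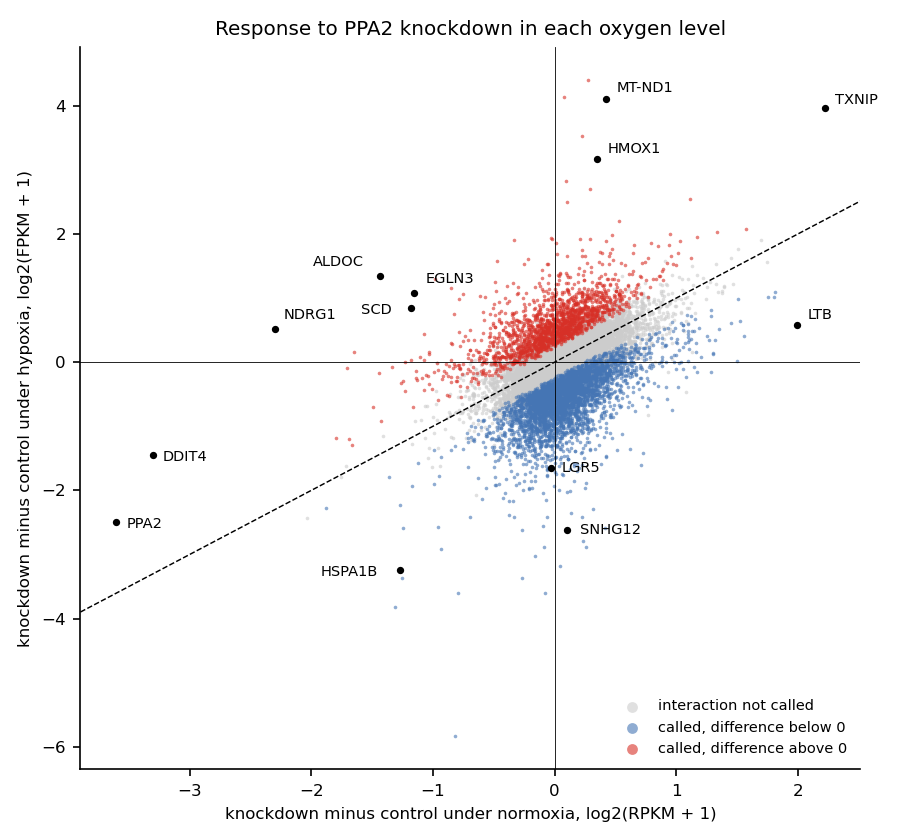
Each point is a tested gene with no group at 0, placed by its log2(value + 1) response to PPA2 knockdown under normoxia (x axis, RPKM) and under hypoxia (y axis, FPKM), with n = 2 libraries per group; colour marks called interactions and the dashed line marks equal responses. HMOX1 and MT-ND1 lie far above the line at a small normoxia response, NDRG1, ALDOC, EGLN3 and SCD lie in the upper left where the response reversed, and SNHG12 and HSPA1B lie far below the line.

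The called interactions fell into patterns by what each arm did. The commonest was a fall under hypoxia with no call under normoxia, 2538 genes or 44.06% of the calls. A rise under hypoxia with no call under normoxia accounted for 1023 genes, and a rise under normoxia with no call under hypoxia for 489. Knockdown lowered 377 genes at both oxygen levels but further under hypoxia, and raised 339 genes at both levels but further under hypoxia. The opposite case, a smaller response under hypoxia, was rarer, with 69 genes raised and 41 genes lowered in both. In 503 genes the arms were called in opposite directions. Of these 149 were lowered under normoxia and raised under hypoxia, and 354 were raised under normoxia and lowered under hypoxia. The number of such reversals rests on the small group size: it was 172 and 196 without the first or second normoxia control library, 320 and 233 without the first or second normoxia knockdown library, and 337 to 633 without a hypoxia library. The count of genes changed under normoxia was 2249, 2345 and 2479 without the first control, the second control and the second knockdown library of that table.

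**Figure D2:**
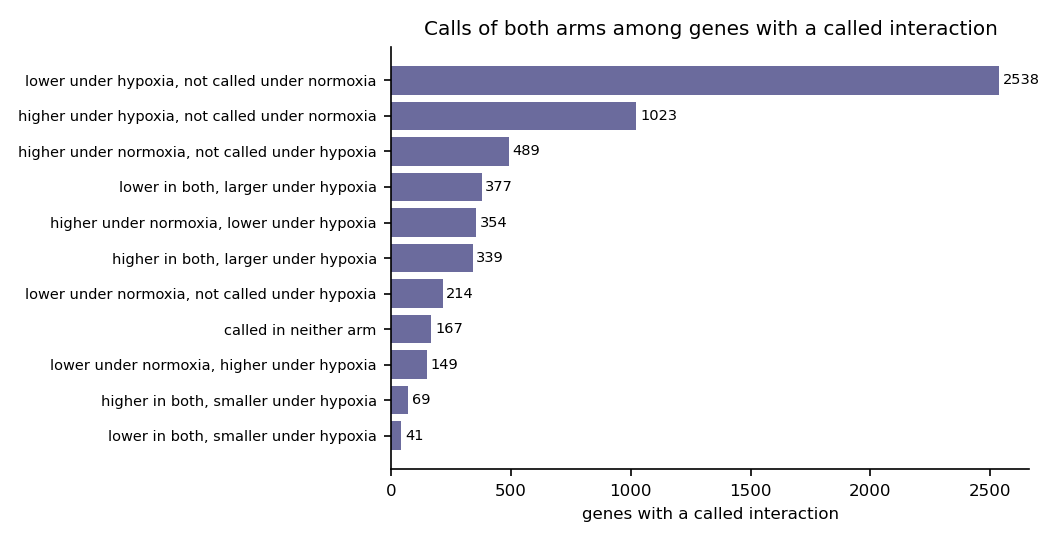
Bars give the number of genes with a called interaction (x axis) by how each arm was called, adding up to 5760 genes. The longest bar is the 2538 genes that fell under hypoxia with no call under normoxia, and the reversals take up 149 and 354 genes.

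The genes that knockdown lowered under normoxia and raised under hypoxia included genes of the hypoxia response. Of the 149 genes, 38 belong to any of the lists, which were chosen with earlier results of these data known. The share of all tested genes in any list was not counted. Among the 149, 12 are glycolysis enzymes or glucose and lactate transporters, 9 belong to cholesterol synthesis and uptake, and 5 are other HIF targets. Those lists hold 23, 27 and 32 of the 13585 tested genes. NDRG1, a hypoxia- and stress-induced gene linked to differentiation, had 94.0 and 78.7 RPKM in normoxic controls and 15.6 and 17.9 RPKM after knockdown. In hypoxic cells it had 197 and 225 FPKM in controls and 304 and 298.5 FPKM after knockdown. The knockdown libraries were thus the lowest of their table in normoxia and the highest in hypoxia, with no overlap. The log2 responses were -2.29 and 0.51, an interaction of 2.81 (standard error 0.14, limma adjusted p = 1.97e-06).

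EGLN3, the prolyl hydroxylase PHD3 that is itself induced by HIF, showed the same reversal. It went from 42.0 and 37.3 to 16.8 and 17.6 RPKM under normoxia and from 57.5 and 57.6 to 121 and 125 FPKM under hypoxia. Replicates lay close together and the groups did not overlap, and the interaction was 2.24 (standard error 0.09, limma adjusted p = 8.92e-07). ALDOC, a glycolytic aldolase, went from 6.65 and 5.46 to 1.47 and 1.73 RPKM and from 11.3 and 11.6 to 29.9 and 31.4 FPKM. Its interaction was 2.78 (standard error 0.14, limma adjusted p = 1.97e-06). SCD, the desaturase that makes monounsaturated fatty acids, went from 161 and 147 to 65.1 and 70.0 RPKM and from 103 and 113 to 194.5 and 195.6 FPKM, an interaction of 2.02. EFHD1, a mitochondrial calcium-binding protein, went from 15.5 and 14.2 to 10.7 and 10.1 RPKM and from 26.0 and 23.0 to 76.5 and 74.2 FPKM, an interaction of 2.05.

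The gene of the HIF-induced microRNA miR-210 was among the 6 largest reversals too. MIR210 read 8.12 and 7.13 RPKM in normoxic controls and 3.82 and 2.96 RPKM after knockdown, then 3.27 and 4.11 FPKM and 9.11 and 11.9 FPKM under hypoxia. These values come from poly(A) RNA over the hairpin gene, not from the mature microRNA. Its host transcript MIR210HG fell in both arms, by 1.07 and by 0.44, with a smaller interaction of 0.64. The mature strand, from RefSeq on GRCh38.p14 (chr11:568112-568133, minus strand), is shown with its seed, bases 2 to 8, in capitals.
hsa-miR-210-3p: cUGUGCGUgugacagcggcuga

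The promoters of 3 of the genes that carry the HIF pattern are shown to place these responses beside the letters upstream of each gene. Each is the 250 bases before the RefSeq transcription start on GRCh38.p14, 5′ to 3′ on the gene's strand. Capitals mark ACGTG on either strand, the core that HIF binds. ALDOC lies at chr17:28576896-28577145 on the minus strand, with 3 matches of which a pair overlap in the palindrome CACGTG. PGK1 lies at chrX:78103998-78104247 on the plus strand, with 2 matches. EGLN3 lies at chr14:33951075-33951324 on the minus strand, and these letters are not in its window.
ALDOC: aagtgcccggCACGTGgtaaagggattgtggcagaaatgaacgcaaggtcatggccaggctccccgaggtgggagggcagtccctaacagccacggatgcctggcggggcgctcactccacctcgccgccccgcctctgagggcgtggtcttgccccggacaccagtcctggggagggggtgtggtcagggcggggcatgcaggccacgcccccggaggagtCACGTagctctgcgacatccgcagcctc
PGK1: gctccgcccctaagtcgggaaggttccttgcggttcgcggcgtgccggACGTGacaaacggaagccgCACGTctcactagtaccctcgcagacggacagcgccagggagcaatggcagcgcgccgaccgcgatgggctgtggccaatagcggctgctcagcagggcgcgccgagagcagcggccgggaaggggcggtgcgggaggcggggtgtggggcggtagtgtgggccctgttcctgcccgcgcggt
EGLN3: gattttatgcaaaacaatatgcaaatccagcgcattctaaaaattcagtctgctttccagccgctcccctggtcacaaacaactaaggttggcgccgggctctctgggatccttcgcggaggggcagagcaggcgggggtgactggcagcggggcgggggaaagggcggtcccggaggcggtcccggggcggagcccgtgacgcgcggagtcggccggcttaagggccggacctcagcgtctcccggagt

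ACGTG stood in 18.5% of all 35116 windows of that length in the RefSeq table and in 22.9% of the windows of tested genes. It stood in 16 of 33 windows (48.5%) of the HIF targets outside glycolysis, of which 24 of 32 tested genes had a window, and in 16 of 47 windows (34%) of the glycolysis list. In the heat shock list, whose called interactions lay below 0 as deposited, it stood in 10 of 32 windows (31.2%). The cholesterol list had 6 of 25 (24%). Over all called genes the share was 21.6% for interactions above 0 and 23.2% for those below. A match is only a description of the sequence.

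The HIF target list as a whole moved from a fall under normoxia to little net change under hypoxia. Of 32 tested HIF targets outside glycolysis, 24 had an interaction above 0 and 2 below, where 13.4% and 29% of all tested genes did. With centred libraries the counts were 25 and 1. The median response was -0.62 under normoxia and 0.07 under hypoxia, and the median interaction was 0.87 against -0.13 over all tested genes. Under normoxia 21 of the 32 fell and 4 rose, where 11% of all tested genes fell and 21.1% rose. Under hypoxia 13 rose and 7 fell, where 26.6% of all tested genes rose and 34.9% fell.

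The members differed in how they reached a positive interaction. DDIT4, an inhibitor of mTORC1 signalling, fell in both arms but less under hypoxia. Its values were 154 and 132.5 RPKM before and 13.6 and 13.6 RPKM after knockdown, against 1101 and 1009 FPKM and then 389 and 380.4 FPKM. The DDIT4 interaction was 1.85 (standard error 0.11, limma adjusted p = 4.95e-06). VEGFA, the angiogenic growth factor, fell from 125 and 108 to 40.3 and 43.7 RPKM under normoxia, whereas its hypoxic values of 134 and 144.5 FPKM in controls and 124.7 and 123.5 FPKM after knockdown differed by a log2 response of -0.16 that was not called. BNIP3L, a mitophagy receptor, had 109 and 102 against 95.1 and 109 RPKM, which overlap, but rose from 70.7 and 73.3 to 211 and 208 FPKM under hypoxia, an interaction of 1.58. P4HA1, a collagen prolyl hydroxylase, and AK4, a mitochondrial adenylate kinase, reversed outright, with responses of -0.39 and 1.19 for P4HA1 and -0.61 and 1.03 for AK4. CA9, a HIF-induced carbonic anhydrase, was at or under 0.49 in both control groups and in normoxic knockdown cells and reached 3.112 and 3.504 FPKM in hypoxic knockdown cells. CA9 passed the filter only through the hypoxic knockdown libraries, so its being higher there is no independent result. The exceptions were HILPDA, a lipid droplet protein, with an interaction of -0.38, and the transcription factor KLF10, with -0.42. HILPDA was no longer called with centred libraries (adjusted p = 0.0741).

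Glycolysis followed the HIF targets. Of 23 tested enzymes and transporters, 19 had an interaction above 0 and 3 below, or 20 and 2 with centred libraries. The median response was -0.34 under normoxia, where 16 fell and none was called up, and 0.33 under hypoxia, where 15 rose and 4 fell. Among all tested genes 11% fell and 21.1% rose under normoxia, and 34.9% fell and 26.6% rose under hypoxia. LDHA, which turns pyruvate into lactate, went from 1326 and 1362 to 871 and 912 RPKM and from 1329 and 1216 to 2117 and 2251 FPKM. Its interaction was 1.37 (standard error 0.09, limma adjusted p = 1.35e-05). PGK1, phosphoglycerate kinase, fell from 230 and 221 to 68.0 and 69.1 RPKM, while its hypoxic values of 223 and 226 against 209.9 and 209.5 FPKM gave a response of -0.10 that was not called. HK2, the inducible hexokinase, fell by 1.14 in normoxia, and its response of -0.14 in hypoxia was not called. The lactate exporter gene SLC16A3 reversed from -0.50 to 0.90, and PGM1, phosphoglucomutase, rose under hypoxia from 37.4 and 36.15 to 75.5 and 77.05 FPKM with a normoxia response of -0.09 that was not called. The 3 members below 0 were the glucose transporter gene SLC2A3 (-0.48), LDHB, the heart-type lactate dehydrogenase subunit (-0.43), and PFKM, a phosphofructokinase (-0.30). PFKM was not called with centred libraries (adjusted p = 0.192).

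Of the oxygen-sensing machinery, 6 of 15 tested genes had an interaction above 0 and 1 below, or 8 and 1 with centred libraries. The exception was HIF1A, the oxygen-labile HIF subunit, whose transcript rose under normoxia and fell under hypoxia. It went from 47.7 and 48.8 to 62.7 and 66.1 RPKM and from 31.5 and 32.5 to 24.3 and 24.3 FPKM, an interaction of -0.79 (standard error 0.08, limma adjusted p = 8.25e-05). EPAS1, which encodes HIF-2 alpha, rose in both arms by 1.10 and 1.29, and its interaction of 0.20 was not called. Transcript levels do not measure HIF protein. EGLN1, the main normoxic prolyl hydroxylase, reversed from -0.38 to 0.41, and KDM3A, a histone demethylase, had responses of -0.85 and an uncalled 0.03.

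**Figure D3:**
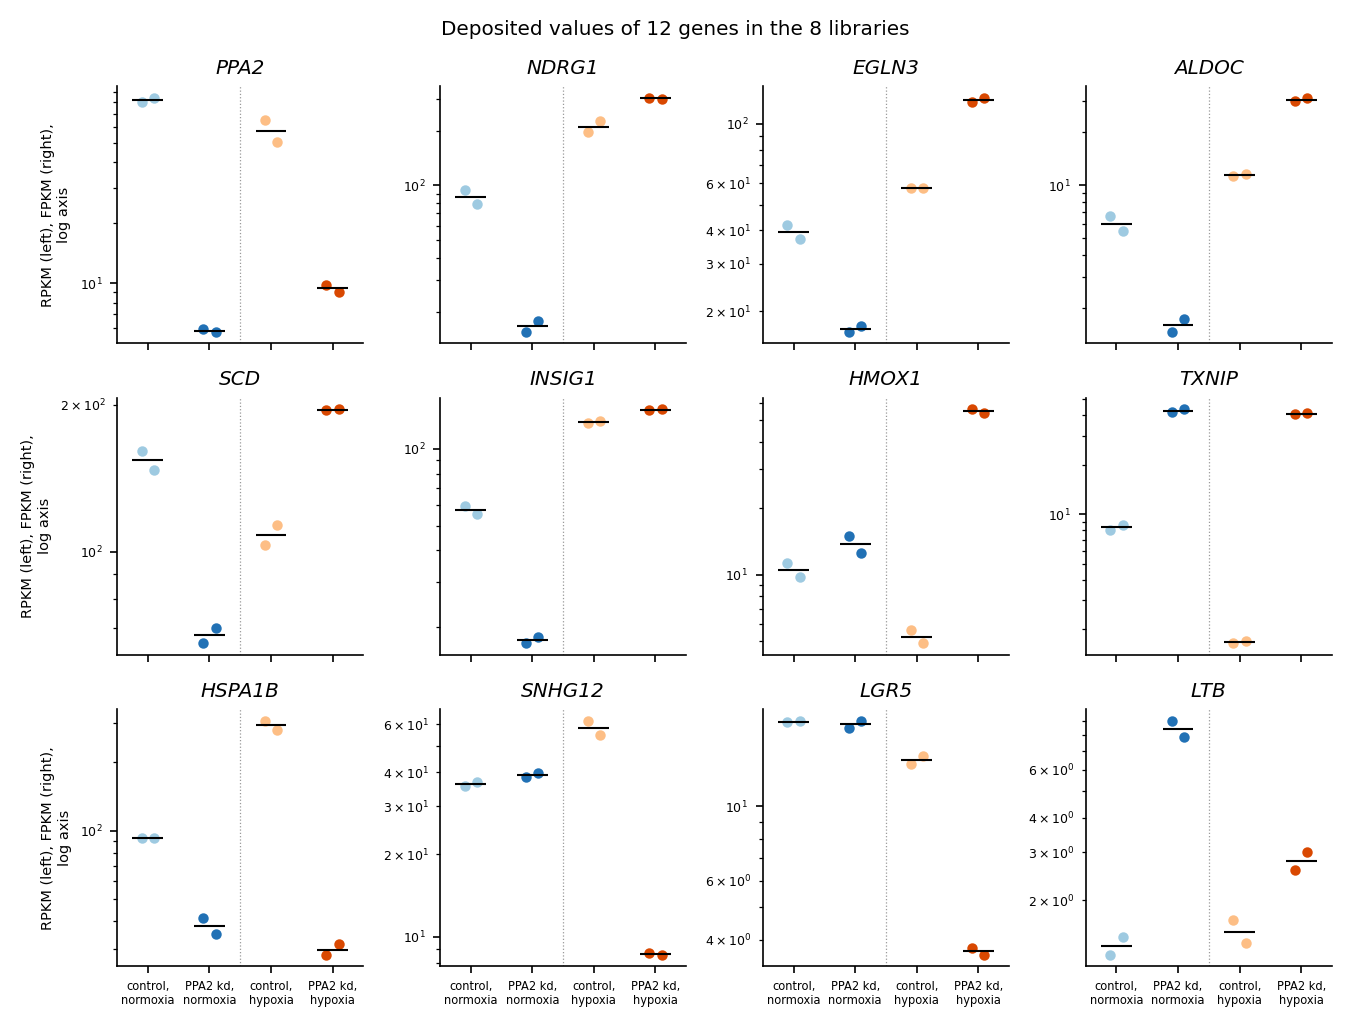
Points are the deposited values of 12 genes in each of the 8 libraries on log axes, RPKM left and FPKM right of the dotted line, with bars at the geometric mean of 2 libraries; kd is knockdown. NDRG1, EGLN3, ALDOC and SCD fell with knockdown on the left and rose on the right, and SNHG12 and LGR5 fell on the right alone.

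Most sterol synthesis genes fell with knockdown under normoxia, and under hypoxia some rose and fewer fell. SREBP factors raise these genes when sterols run low. Of 27 tested genes of cholesterol synthesis and uptake, 18 had an interaction above 0 and none below (21 and none with centred libraries), with a median of 0.66. The median response was -0.43 under normoxia, where 18 fell and 1 rose, and 0.16 under hypoxia, where 14 rose and 6 fell. Over all tested genes 26.6% rose and 34.9% fell under hypoxia. INSIG1, which holds SREBP in the endoplasmic reticulum and is itself an SREBP target, fell from 59.8 and 55.7 to 17.3 and 18.3 RPKM, but went from 126 and 129 to 142 and 143 FPKM under hypoxia. The INSIG1 interaction was 1.81 (standard error 0.08, limma adjusted p = 1.41e-06). MSMO1, a sterol methyl oxidase, reversed from a response of -0.53 to 0.41. In the list of fatty acid genes, 4 of 27 (14.8%) had an interaction above 0 and 7 (25.9%) below, near the 13.4% and 29% of all tested genes. With centred libraries 11 lay above and 3 below. SCD led those above 0, and the oxidation genes ACADVL (-1.14) and CPT1A (-1.0017) were among those below. CPT1A, which admits long-chain fatty acids to mitochondria, rose from 10.2 and 9.87 to 16.35 and 16.98 RPKM and fell from 12.2 and 13.25 to 10.3 and 9.605 FPKM.

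Some stress genes responded to knockdown mainly when oxygen was low. HMOX1, haem oxygenase, had 11.3 and 9.82 RPKM in normoxic controls and 14.9 and 12.6 RPKM after knockdown. Under hypoxia it rose from 5.63 and 4.91 to 56.2 and 54.1 FPKM, an interaction of 2.81 (standard error 0.14, limma adjusted p = 2.09e-06). Of the 23 tested NRF2 and glutathione genes, 9 had an interaction above 0 and 3 below (9 and 2 with centred libraries), with a median of 0.03. The next largest, AKR1C3 (0.92), UGDH (0.85) and OSGIN1 (0.81), were much smaller than HMOX1. TXNIP, an arrestin that binds thioredoxin and limits glucose uptake, rose in both arms, from 8.04 and 8.62 to 41.65 and 43.3 RPKM and from 1.65 and 1.70 to 40.65 and 41.0 FPKM. Knockdown and control libraries did not overlap in either table, and the interaction was 1.75 (standard error 0.09, limma adjusted p = 3.54e-06). Metallothioneins, which bind zinc and copper, and zinc transporters had 6 of 13 interactions above 0 and none below, or 8 and none with centred libraries. MT2A reversed from 281 and 247 to 228 and 202 RPKM, and from 170 and 147 to 254 and 242 FPKM. MT1X, with overlapping normoxic values of 7.73 and 10.8 against 8.79 and 5.80 RPKM, rose from 34.25 and 25.8 to 61.55 and 64.6 FPKM. These short genes are close in sequence, so reads may be split between them.

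Of 28 tested ATF4 and integrated stress response genes, 17 fell and 2 rose under normoxia, against 11% and 21.1% of all tested genes. Under hypoxia 15 fell and 5 rose, against 34.9% and 26.6%. Their interactions did not share a direction, with 10 above 0 and 5 below, or 12 and 5 with centred libraries. Over all tested genes 13.4% lay above 0 and 29% below as deposited. SLC7A5, a leucine transporter, fell under normoxia from 130.1 and 131 to 67.1 and 59.7 RPKM, and read 54.8 and 52.3 against 58.1 and 58.7 FPKM under hypoxia, where the change was not called. TRIB3, an ATF4-induced pseudokinase, reversed from -0.42 to 0.51. DDIT3, the pro-apoptotic factor CHOP, fell in both arms and further under hypoxia, from 45.2 and 42.85 to 15.6 and 16.5 FPKM, an interaction of -1.07. In iron handling, TFRC, the transferrin receptor, had an interaction of -0.91, and FTL, the ferritin light chain, 0.80.

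Most heat shock chaperones fell with knockdown under normoxia, 14 of 22 with 4 rising, and under hypoxia 18 fell and none rose. Among all tested genes 11% fell and 21.1% rose under normoxia, and 34.9% fell and 26.6% rose under hypoxia. The 4 that rose under normoxia were the chaperone genes DNAJB6 (0.36), DNAJB4 (0.26), HSPA4L (0.42) and DNAJA1 (0.21). Of 22 tested genes, 15 had an interaction below 0 and none above, against 29% and 13.4% of all tested genes. With centred libraries 10 lay below and 1 above. The median response was -0.23 under normoxia and -0.55 under hypoxia. HSPA1B, an inducible HSP70, fell from 93.1 and 92.4 to 41.2 and 34.9 RPKM and from 305 and 278 to 28.3 and 31.5 FPKM. HSPA1A fell from 32.6 and 26.0 to 12.05 and 11.25 RPKM and from 28.4 and 29.4 to 1.77 and 2.03 FPKM. Their interactions were -1.98 and -2.12 (limma adjusted p = 7.11e-06 and 1.33e-05). HSPA1A and HSPA1B are nearly identical, so how reads were divided between them is uncertain. DNAJB1, the HSP40 partner of HSP70, does not share that problem and fell from 222 and 216 to 116 and 113 RPKM and from 454 and 432 to 57.4 and 57.8 FPKM, an interaction of -1.99 (standard error 0.08, limma adjusted p = 4.58e-07). In each of these no knockdown library overlapped a control of its table. HSPE1, the mitochondrial co-chaperonin, had an interaction of -1.01.

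The promoter of HSPA1B is shown for the heat shock element, inverted repeats of GAA that HSF1 binds. It is the 250 bases before the RefSeq start on GRCh38.p14 (chr6:31827488-31827737, plus strand), and capitals mark the only match to GAANNTTC, a motif that reads the same on both strands.
HSPA1B: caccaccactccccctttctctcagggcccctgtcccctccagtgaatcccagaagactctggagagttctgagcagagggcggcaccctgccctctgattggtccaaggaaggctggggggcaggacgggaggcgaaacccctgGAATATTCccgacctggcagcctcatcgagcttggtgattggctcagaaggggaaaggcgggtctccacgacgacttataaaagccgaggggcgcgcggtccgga
GAANNTTC stood in 11 of 32 windows (34.4%) of the heat shock list, from 20 of 22 tested genes, in 4.08% of the windows of tested genes and in 5.78% of all windows.

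Small nucleolar RNA host genes had the lowest median response to knockdown under hypoxia of the lists described. These are genes whose introns carry the guides for ribosomal RNA modification. Of 20 tested host genes, 17 had an interaction below 0 and none above (16 and none with centred libraries). The median response was -0.16 under normoxia and -1.40 under hypoxia, against -0.05 for all tested genes. SNHG12 had 35.6 and 37.0 RPKM in normoxic controls and 38.4 and 40.0 RPKM after knockdown, and fell from 61.8 and 54.8 to 8.74 and 8.58 FPKM under hypoxia. Its interaction was -2.72 (standard error 0.10, limma adjusted p = 4.58e-07). SNHG15 went from 17.5 and 18.4 to 19.7 and 19.6 RPKM and from 21.3 and 18.4 to 3.99 and 4.39 FPKM. GAS5, a host gene whose spliced RNA is degraded during translation, had an interaction of -1.44. Of 135 tested small nucleolar RNA symbols, 54 lay below 0 and 6 above, with a median of -0.47. Among all tested genes 29% lay below 0 and 13.4% above. The symbols were not counted with centred libraries. SNORD14E, SNORD6 and SNORA33 had the largest of these, but such short RNAs lie within their hosts' introns and are poorly captured by poly(A) selection, so reads of host and guide cannot be told apart here.

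Ribosome assembly fell with them. Of 33 nucleolar ribosome biogenesis factors, 29 had an interaction below 0 and none above, or 25 below and 1 above with centred libraries. Their median response was -0.10 under normoxia, where 6 fell, and -0.78 under hypoxia, where 32 fell. Among all tested genes 11% fell under normoxia and 34.9% under hypoxia. MYBBP1A, a nucleolar regulator of ribosomal RNA synthesis, had 31.5 and 31.2 against 31.2 and 27.3 RPKM and fell from 17.8 and 17.9 to 5.07 and 5.26 FPKM. Its interaction was -1.51 (standard error 0.10, limma adjusted p = 1.35e-05). LYAR, a nucleolar growth regulator, had an interaction of -1.25, and BOP1, of the 60S assembly complex PeBoW, of -1.24. Of 75 cytosolic ribosomal protein genes, 40 lay below 0 and 1 above (27 and 2 with centred libraries), with median responses of -0.23 and -0.58. RPS29 fell from 123 and 125 to 108 and 92.5 RPKM and from 340.5 and 295 to 116 and 114 FPKM. RPL3, the member above 0, fell by 0.63 under normoxia and by 0.31 under hypoxia. Ribosomal protein genes have many processed pseudogenes, to which reads may be lost unequally.

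**Figure D4:**
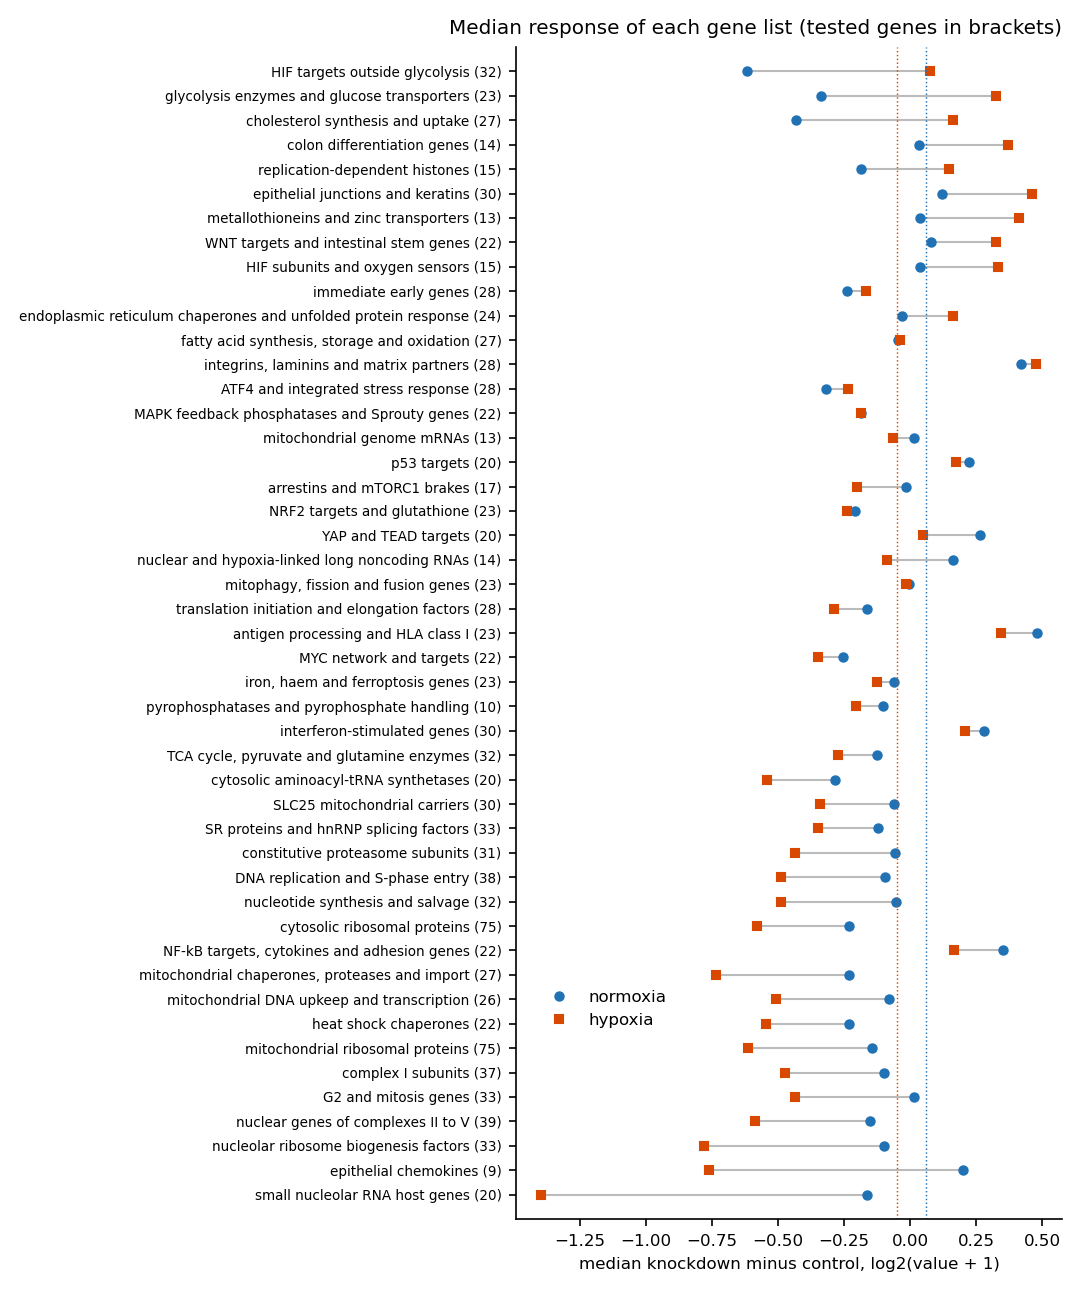
Each row is a gene list with its number of tested genes, ordered by median interaction; the circle is the median log2(value + 1) response under normoxia and the square that under hypoxia, and dotted lines are the medians of all tested genes, 0.06 and -0.05. HIF targets, glycolysis and cholesterol genes cross from left to right, while small nucleolar RNA host genes and nucleolar factors move far to the left. Mitochondrial ribosomal and transfer RNAs are left out because most are listed at 0 under normoxia.

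Nuclear genes for mitochondrial proteins, the compartment of PPA2 itself, fell further under hypoxia than under normoxia. Under normoxia 25 of 75 mitochondrial ribosomal protein genes and 15 of 27 import, chaperone and protease genes fell, with none rising. Under hypoxia 65 and 26 members of these lists fell, and 1 and 0 rose. In complex I and in complexes II to V, 7 genes each fell and 2 each rose under normoxia. Over all tested genes 11% fell under normoxia and 34.9% under hypoxia. Of 37 complex I subunits, 24 had an interaction below 0 and none above, and of 39 nuclear subunits of complexes II to V, 27 lay below and 1 above. With centred libraries these counts were 14 below and 1 above, and 18 below and 2 above. Median responses were -0.10 and -0.15 under normoxia and -0.47 and -0.59 under hypoxia. UQCRB, a complex III subunit, had 58.4 and 58.9 against 57.1 and 56.3 RPKM and fell from 99.2 and 82.2 to 38.7 and 40.0 FPKM. NDUFB1, of complex I, had an interaction of -0.99. Among 75 mitochondrial ribosomal protein genes 46 lay below 0 and 2 above (33 and 4 with centred libraries), and among 26 genes of mitochondrial DNA upkeep and transcription 17 below and 1 above (10 and 2 with centred libraries). Of the latter, PNPT1, a mitochondrial RNA-degrading exoribonuclease, had 69.3 and 71.7 against 69.7 and 76.5 RPKM, which overlap, and fell from 27.7 and 32.5 to 11.2 and 10.9 FPKM. Its interaction was -1.41, and that of SLIRP, which binds and stabilises mitochondrial mRNAs, was -1.40. Of 27 import, chaperone and protease genes 15 lay below 0 and 1 above (11 and 1 with centred libraries), the latter as deposited being LONP1, the matrix protease, which fell by 0.60 under normoxia and by 0.19 under hypoxia.

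Transcripts of the mitochondrial genome itself did not follow a single direction. All 13 mRNAs were tested, with 6 interactions above 0 and 4 below. MT-ND1, a complex I subunit, read 2229 and 1847 against 2993 and 2467 RPKM in normoxia, and 87.1 and 76.8 against 1443 and 1415 FPKM in hypoxia. Its interaction was 3.69 (standard error 0.16, limma adjusted p = 8.92e-07). MT-CO1, of complex IV, read 8244 and 9084 against 9288 and 9172 RPKM, and 1128 and 986 against 7489 and 7431 FPKM, an interaction of 2.73. Under hypoxia both controls lay far below both knockdown libraries for each gene.

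MT-ND6 (3.30), MT-ND5 (2.40), MT-ND4 (1.94) and MT-ND4L (1.85) had interactions above 0 as well. MT-ND2 (-1.32), MT-ND3 (-1.13), MT-CYB (-0.75) and MT-CO2 (-0.67) lay below. MT-CYB, of complex III, read 3765 and 3320 against 3415 and 2971 RPKM, and fell from 3941 and 3420 to 1974 and 1951 FPKM. The interactions of MT-ATP6, MT-ATP8 and MT-CO3 were not called. Of 18 tested mitochondrial transfer RNA genes 16 are listed at 0 in every normoxia library, so no response under normoxia can be given. Most passed the filter only through the hypoxic knockdown libraries, so that their being higher there is no independent result. MT-TY, for instance, is listed at 0 in the controls and at 354 and 391 FPKM after knockdown.

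The mitochondrial values carry a limit of their own. Nuclear copies of mitochondrial genes took reads differently in the 2 tables: MTATP6P1 read 9.56 to 13.3 RPKM and 388.5 to 533.5 FPKM, and MTCO3P12 297 to 423 RPKM and 0.82 to 1.61 FPKM. Genes of the mitochondrial genome made up 10.8% to 12.2% of the summed values in the normoxia libraries, 7.64% and 8.49% in the hypoxic controls, and 12.4% and 12.6% in the hypoxic knockdown libraries. The part of this in the results for other genes was not tested beyond the rescaling without mitochondrial genes.

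**Figure D5:**
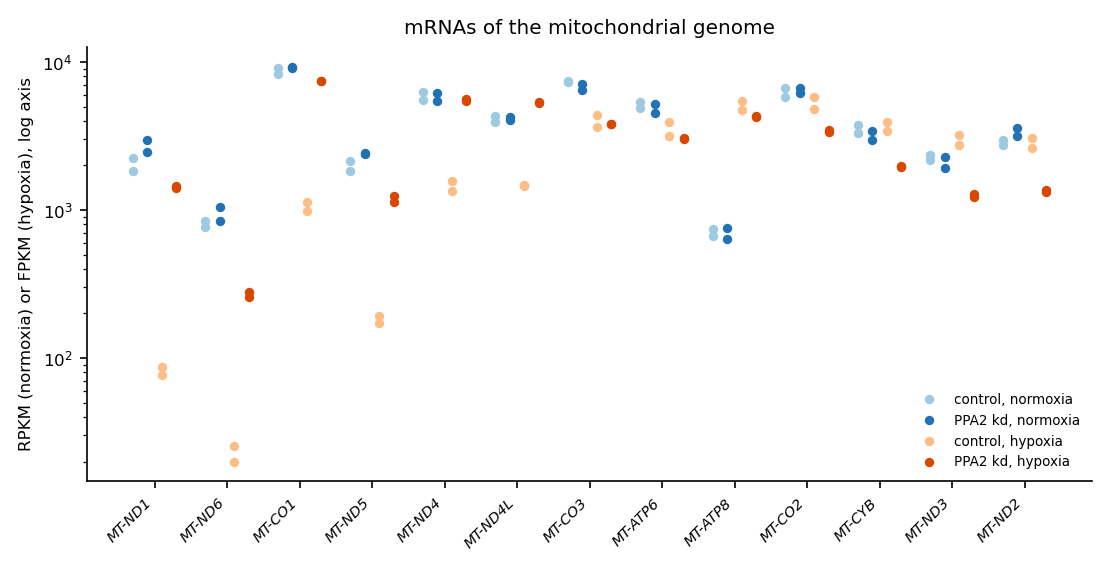
Points are the deposited values of the 13 mitochondrial mRNAs in each library (log axis, RPKM for normoxia and FPKM for hypoxia, 2 libraries per group; kd is knockdown). For MT-ND1, MT-ND6, MT-CO1, MT-ND5, MT-ND4 and MT-ND4L the controls lie below the knockdown libraries within the hypoxia table, while for MT-CO2, MT-CYB, MT-ND3 and MT-ND2 they lie above.

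Genes of cell division and nucleotide supply fell further with knockdown under hypoxia than under normoxia. Under normoxia 4 G2 and mitosis genes rose and 5 fell, 1 replication gene rose and 14 fell, and 6 nucleotide genes rose and 8 fell. Under hypoxia the counts were 1 and 26, 2 and 31, and 3 and 20. Among all tested genes 21.1% rose and 11% fell under normoxia, and 26.6% and 34.9% under hypoxia. Of 33 G2 and mitosis genes, 22 had an interaction below 0 and none above (18 and 1 with centred libraries), with median responses of 0.01 and -0.44. TTK, a spindle checkpoint kinase, had 28.2 and 31.2 against 29.9 and 32.6 RPKM, which overlap, and fell from 21.9 and 19.8 to 9.47 and 10.5 FPKM. CCNB1, cyclin B1, had an interaction of -0.88 and BUB1B, a checkpoint kinase, of -0.90. Of 38 replication genes 23 lay below and 1 above, and of 32 nucleotide synthesis genes 17 below and 3 above. With centred libraries these were 14 and 1, and 14 and 4. CTPS1, which makes cytidine nucleotides, fell from 52.6 and 52.1 to 42.1 and 44.1 RPKM and from 23.9 and 25.2 to 8.65 and 8.03 FPKM, an interaction of -1.18. CAD, which starts pyrimidine synthesis, rose by 0.29 under normoxia and fell by 0.67 under hypoxia. MYC fell from 65.1 and 60.4 to 40.0 and 38.0 RPKM, while its hypoxic values of 25.6 and 26.4 against 24.3 and 21.9 FPKM were not called different.

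Splicing factors and proteasome subunits moved the same way with less certainty. Of 33 SR and hnRNP genes, 20 lay below 0 and none above, or 13 below and 3 above with centred libraries. HNRNPDL, an hnRNP that regulates its own splicing, had 171.5 and 166 against 165 and 173 RPKM and fell from 230.1 and 236 to 66.4 and 74.0 FPKM, an interaction of -1.72. SRSF3 had an interaction of -1.22 and the splicing kinase CLK1 of -1.34. For the 31 proteasome subunits the count below 0 was 23 as deposited and 9 with centred libraries, and for 20 aminoacyl-tRNA synthetases it was 13 and 5, so most of those calls rest on the scaling.

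Inflammatory genes were among those whose response to knockdown was lower under hypoxia. Under normoxia 14 of the 22 below rose and 1 fell, against 21.1% and 11% of all tested genes. Under hypoxia 8 rose and 6 fell, against 26.6% and 34.9%, and the difference between these counts was not tested. Of 22 tested NF-kB targets, cytokines and adhesion genes, 10 had an interaction below 0 and none above (9 and 2 with centred libraries), and the median response was 0.35 under normoxia and 0.17 under hypoxia. LTB, lymphotoxin beta, rose from 1.27 and 1.48 to 9.04 and 7.87 RPKM but from 1.69 and 1.39 to 2.59 and 2.99 FPKM. Its interaction was -1.42 (standard error 0.16, limma adjusted p = 0.00016). NFKB2, a subunit of the non-canonical pathway, reversed from a rise, 19.8 and 19.25 to 28.7 and 26.9 RPKM, to a fall, 24.3 and 24.7 to 14.3 and 15.7 FPKM. FAS, a death receptor listed with the p53 targets and not among these 22 genes, also reversed. It went from 5.77 and 5.46 to 11.1 and 12.05 RPKM and from 4.415 and 4.77 to 2.84 and 2.69 FPKM. The FAS interaction was -1.50. Of 20 tested p53 targets, 6 had an interaction above 0 and 5 below, or 7 and 4 with centred libraries.

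Epithelial chemokine genes split under hypoxia, where 5 of 9 fell and 3 rose with knockdown. Of 9 tested chemokine genes 5 lay below 0 and 2 above, with centred libraries too. CXCL8 fell in both arms, from 43.7 and 41.95 to 28.65 and 31.9 RPKM and from 17.2 and 16.9 to 3.84 and 3.78 FPKM, an interaction of -1.42. CXCL1 reversed from 13.75 and 13.5 to 21.3 and 23.1 RPKM, and from 4.50 and 3.79 to 1.72 and 2.36 FPKM. CXCL2 (-1.84) and CCL20, a chemokine for CCR6-bearing cells (-1.63), also lay below 0, while CX3CL1 (0.75) and CCL28 (0.68), which rose by 1.21 and 0.61 under hypoxia, lay above. Antigen presentation genes mostly rose with knockdown in both arms. Under normoxia 19 of 23 rose and 1 fell, and under hypoxia 16 rose and 2 fell. Over all tested genes 21.1% rose under normoxia and 26.6% under hypoxia. The interactions of the antigen presentation genes split, with 6 above 0 and 10 below, or 7 and 4 with centred libraries. B2M, the light chain of class I molecules, rose from 76.6 and 70.2 to 121 and 136 RPKM, while its hypoxic values of 73.5 and 71.7 against 68.0 and 74.1 FPKM overlapped. PSMB9, an immunoproteasome subunit, rose in both arms, by 1.80 and 1.01.

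Most epithelial differentiation genes had an interaction above 0. Of 30 junction and keratin genes, 11 rose and 4 fell under normoxia, and 20 rose and 4 fell under hypoxia. For 14 colon differentiation genes these counts were 2 and 3, and then 8 and 3. Among all tested genes 21.1% rose and 11% fell under normoxia, and 26.6% and 34.9% under hypoxia. Some positive interactions are smaller falls, as for the junction gene CLDN2 (responses of -1.13 and -0.28) and the colon gene TFF1 (-1.23 and -0.45). Of 30 tested junction and keratin genes, 16 had an interaction above 0 and 2 below (23 and 1 with centred libraries), with median responses of 0.12 and 0.46. CDH1, E-cadherin, had 222 and 212 against 241 and 240.2 RPKM, a response that was not called, and rose from 141 and 130.5 to 268 and 239.8 FPKM. Of 14 tested colon differentiation genes 10 lay above 0 and 1 below, and with centred libraries 10 and none. TFF3, a goblet cell trefoil peptide, had overlapping values of 15.7 and 13.3 against 14.8 and 12.15 RPKM and rose from 8.02 and 8.03 to 20.97 and 22.1 FPKM. CDX2 and HNF4A, transcription factors of intestinal identity, had interactions of 0.67 and 0.88. ELF3, another epithelial factor, went the other way, with -0.78. The intestinal stem cell receptor LGR5 had 17.8 and 18.0 against 17.15 and 18.0 RPKM and fell from 13.4 and 14.1 to 3.78 and 3.61 FPKM. Its interaction was -1.63 (standard error 0.10, limma adjusted p = 6.16e-06), although the list of WNT targets and stem genes had 7 of 22 interactions above 0 and 3 below, or 11 and 2 with centred libraries.

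Of the 354 genes raised under normoxia and lowered under hypoxia, 29 belong to any of the lists. Of the 149 reversed the other way 38 do, and the difference was not tested. The share of all tested genes in any list was not counted, so neither count shows more or fewer listed genes than elsewhere. Of the 6 largest, NAT9, an acetyltransferase, rose from 42.45 and 40.7 to 47.5 and 47.4 RPKM and fell from 43.8 and 42.6 to 13.8 and 13.7 FPKM, an interaction of -1.77. PHKG2, the catalytic subunit of liver phosphorylase kinase, rose from 4.91 and 4.58 to 5.74 and 5.82 RPKM and fell from 31.5 and 33.4 to 11.2 and 10.6 FPKM, an interaction of -1.73. Both changes under normoxia are small beside those under hypoxia. SNORD99, RNU6-767P and AL021707.8 are short or low noncoding genes with at most 8.80 in any library, and AC132812.1 is listed at 0 in both hypoxic knockdown libraries and at 1.07 to 6.31 elsewhere.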

How the data were processed

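Poly(A) RNA from 8 libraries of DLD1 cells was sequenced after a stranded library preparation, per the labels' protocols. The submitters' processing notes name cutadapt 1.18, Trimmomatic 0.35, FastQC, HISAT2 2.1.0 and the build GRCh38. The authors deposited the normoxia libraries as RPKM and the hypoxia libraries as FPKM, each in its own table, and how reads were counted is not given in the sources used here. Beside these stand 4 columns of samples outside the series, not used. The normoxia values fell within 0.02 of whole-read steps for 93.2% to 93.7% of single-exon genes examined, and the hypoxia depth is unknown.

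Tables of 60234 and 60612 genes were joined on symbols used once in each, values were taken as log2(value + 1), which understates changes of low genes, and genes with a mean of at least 1 were kept. A model of 4 group means was fitted with limma 3.58.1 (R 4.3.3) with a mean-variance trend, after the procedure had been tested on simulated data. All adjusted p-values are limma's with Benjamini-Hochberg adjustment over all 13585 genes. Alternatives changed the pseudocount, filter, scaling, variance model, thresholds and libraries. Deviations of same-numbered libraries from their group means correlated at -0.01 to 0.13, so the numbers do not pair the libraries.

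The named genes are PPA2 and PPA1, the 12 largest called interactions of each sign with the same sign in all 16 choices of 1 library per group, up to 4 called members of each list and those against its median, and the 6 largest reversals of each kind. Other genes named were chosen after their values were seen. Members and lists were chosen with earlier results of these data known. Promoter and microRNA sequences are from RefSeq on GRCh38.p14.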

Additional observations from a re-analysis of the deposited data

Results flagged for a closer look

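The test of the difference between oxygen levels called 5760 genes. A selection of them, not a full ranking, is given here as interactions on the log2(value + 1) scale. No interaction is given for genes with a group listed at 0. Of those left out, MT-TY, MT-TC and AC004080.3 had interactions larger in size than some given here. HMOX1 (2.81) and MT-CO1 (2.73), described above, are not repeated. PPA2 had 1.11 and PPA1 -0.57. Of the mitochondrial genome, MT-TF had 4.13, MT-TP 4.06, MT-ND1 3.69 and MT-ND6 3.30. The first pair are transfer RNA genes: MT-TP read 598 and 585 against 579.8 and 673 RPKM, and 0.127 and 0.602 against 22.2 and 23.2 FPKM. MT-TF read 0.503 and 0.789 against 0.394 and 1.83 RPKM, and 0.944 and 0.483 against 35.53 and 34.45 FPKM. MT-TF passed the filter only through the hypoxic knockdown libraries, so its being higher there is no independent result.

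Short nucleolar RNAs led the interactions below 0, with SNORD14E at -5.02, SNORD6 at -3.51, SNORA33 at -3.15, SNORD38A at -3.10, SNORD100 at -3.03, SNORA20 at -3.0003, SNORD48 at -2.87 and SNORD46 at -2.80. The host gene SNHG12 had -2.72 and the noncoding gene AC104695.3 -2.81. AC104695.3 read 15.95 and 16.41 FPKM in hypoxic controls and at most 1.689 in any other library. TOMM6, a subunit of the mitochondrial import pore, had -3.23. It is listed at 0 to 0.108 RPKM in the normoxia table, so its interaction is the hypoxia response alone. Both TOMM6 and AC104695.3 passed the filter only through the hypoxic controls, so their being higher there is no independent result.

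Genes lowered under normoxia and raised under hypoxia were led by NDRG1 (2.81), ALDOC (2.78), MIR210 (2.27), EGLN3 (2.24), EFHD1 (2.05) and SCD (2.02). Those raised under normoxia and lowered under hypoxia were led by SNORD99 (-2.61), RNU6-767P (-2.14), AL021707.8 (-1.98), NAT9 (-1.77) and PHKG2 (-1.73), beside AC132812.1, for which no interaction is given because a group is listed at 0.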

How the results depend on the processing

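With 2 libraries per group, counts depend on single libraries. Leaving out 1 library gave 4350 to 5969 called interactions (1243 to 2078 above 0 and 3087 to 4029 below), 2249 to 5182 genes changed under normoxia (1529 to 3372 up and 720 to 1813 down) and 6980 to 8210 under hypoxia (2890 to 3656 up and 4046 to 4681 down). Reversals numbered 172 to 633, the correlation of the arms was 0.3988 to 0.4195, lists with a median above 0 numbered 19 to 20, PPA2 lay at 0.9314 to 1.2909 and PPA1 at -0.6154 to -0.5211. No interaction changed sign among the named genes that each alternative tested, 260 to 296 of 296. All but PPA2 and PPA1 were named for a called interaction. Of the 5760 called interactions, 5759 keep the same sign in all 16 choices of 1 library per group. The constant signs were thus largely fixed by the selection and do not test how stable directions are.

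Scaling moved the split most. Median centring gave 2951 interactions above 0 and 2612 below, and 1829 genes up and 2437 down under normoxia, and 23 of the 296 named genes lost their call. Without mitochondrial genome genes 5550 genes rose under hypoxia. At an adjusted p under 0.01 there were 3635 interactions (1034 and 2601), 2302 genes changed under normoxia (1520 and 782) and 156 reversals. At an absolute log2 difference of at least 1 there were 773 interactions (205 and 568), 168 genes changed under normoxia (109 and 59), 972 under hypoxia (336 and 636) and 141 reversals, and PPA1 at -0.5683 no longer passed. With no filter on low values reversals numbered 260.

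The correlation of the arms was 0.3953 and 0.3548 at pseudocounts of 0.1 and 0.01, 0.3531 with no filter, 0.4346 at a mean of at least 5, 0.4602 at 1 or more in every library, 0.3849 with libraries rescaled to equal sums, 0.3938 without mitochondrial genome genes, 0.4506 with the annotated hypoxia sheet, and 0.4635 at a mean of at least 1 in each table, which was chosen after seeing the data. The cause of these shifts was not tested. A replicate block within each oxygen level gave 5471 called interactions and a block shared by all libraries 5820. The numbers do not pair the libraries.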
